A study of Mus musculus with 375 samples.

Results

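The 45 genes described here act in DNA replication and S phase, and all were found by symbol among the 23420 genes of the deposited table. They were chosen by name, but with earlier results of these data known, so their counts beside all genes are descriptions. By role, 14 act in origin licensing and firing, 17 at the replication fork, 5 in chromatin duplication, 3 in repair and 6 as cell cycle regulators. Before a cell enters S phase, the ORC complex, Cdc6 and Cdt1 load the ring-shaped MCM helicase onto origins. Cdc45 and the GINS complex then join MCM to form the active helicase, behind which primase, the replicative polymerases, the PCNA clamp and its RFC loader copy the strands. E2F transcription factors switch most of these genes on late in G1, and in the intestinal crypt they mark the dividing stem and transit-amplifying cells.

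Lgr5 marks the stem cells at the base of the intestinal crypt, and mouse small intestinal cells sorted for it by flow cytometry were sequenced with Smart-seq2, in which the whole length of the mRNA of each sorted cell is copied in its own well. The cells came from mice fed a high-fat diet (HFD, sets HFD 1 and HFD 2) or a control diet (sets control 1 and control 2). Strain, age, sex, diet composition and time on the diet were not given in the sources used here, and neither was whether a set was 1 mouse. The set was taken as the replicate, so every p-value rests only on spread between 2 sets per diet, which may be technical. The test used, limma, draws the spread of each gene toward that of all tested genes. A p-value therefore does not measure the spread of that gene's own sets alone.

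Of 375 cells, 367 had at least 2000 genes above 0 TPM and were used: 91 and 92 in the HFD sets and 93 and 91 in the control sets, with no cells of identical values. The median number of genes per cell was 6857 and 6348.5 in the HFD sets and 6895 and 6130 in the control sets, and the read depth is unknown because TPM does not keep it. Lgr5 was found at 1 TPM or more in 95.6% and 94.6% of HFD cells and in 95.7% and 93.4% of control cells. The 45S ribosomal RNA precursor Rn45s took 26.9% and 18.6% of all TPM in the HFD sets and 39.1% and 24.6% in the control sets, so the diets overlapped. The median log2 fold change of all genes tested was 0.13 over 11667 genes as deposited and -0.05 over the 12124 genes that passed the filter once Rn45s was removed from the total, and list medians are given below also relative to it. The 8 stem cell markers summed to 10319 and 12724 TPM in the HFD sets and 7884 and 10106 TPM in the control sets. Enterocyte, Paneth and goblet markers also summed higher in both HFD sets than in both control sets. The 9 enterocyte markers summed to 881 and 991 TPM in the HFD sets and 317 and 464 TPM in the control sets. The 9 Paneth markers summed to 4795 and 473 TPM in the HFD sets and 67.3 and 32.4 TPM in the control sets, and the 9 goblet markers to 661 and 550 against 507 and 78.3 TPM. Enteroendocrine, tuft, T cell, B cell, myeloid and stromal lists each summed to under 5 TPM in every set, with Neurod1, Gcg, Gfi1b, Cd3g and Col1a1 at 0. The part of these cells in the results was not tested beyond leaving out cells with secretory markers, under which 38 of the 45 genes had both HFD sets above both control sets, against 29.2% of all genes.

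The promoters show what many of the genes share in sequence. RefSeq windows on GRCm38.p6, from 250 bases before to 50 after a transcription start, were at hand for 35 of the 45 genes; Mcm4, Gins1, Gins2, Gins4, Rfc2, Pole, Prim2, Dscc1, Exo1 and Ccne2 had no entry. They were searched on both strands for 4 words that E2F factors are known to bind, TTTCCCGC, TTTCGCGC, TTTGCCGC and TTTGGCGC. A word was found in 15 of the 35 genes (42.9%), namely 7 of 10 origin genes (70.0%), 5 of 13 fork genes (38.5%), the chromatin genes Hells and Uhrf1 and the repair gene Msh6. Among all 27025 genes with a window 704 (2.61%) held one, among the tested genes 413 of 8631 (4.79%), and on a list of mitosis genes 1 of 29 (3.45%). The word TTTGAA, known as the CHR element of mitotic promoters, was most frequent among the mitosis genes instead: it was in 6 of 35 replication genes (17.1%) and in 21 of 29 mitosis genes (72.4%), against 14.4% of tested genes. The 4 windows below belong to the genes with an E2F word that had the smallest p for the diet difference in mean level. Slbp, Pcna and Ccne1 had a smaller p than these, but their windows held none of the words, and Gins1, with the smallest p, had no window. Whether the words go with the diet difference was not tested. They are printed 5′ to 3′ on the strand of the gene with the words in capitals.
Mcm3: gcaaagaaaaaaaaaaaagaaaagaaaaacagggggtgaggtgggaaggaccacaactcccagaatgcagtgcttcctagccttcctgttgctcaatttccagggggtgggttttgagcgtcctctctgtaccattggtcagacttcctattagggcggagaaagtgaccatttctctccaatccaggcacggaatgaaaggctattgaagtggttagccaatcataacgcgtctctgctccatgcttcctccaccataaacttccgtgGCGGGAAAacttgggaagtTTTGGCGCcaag
Mcm5: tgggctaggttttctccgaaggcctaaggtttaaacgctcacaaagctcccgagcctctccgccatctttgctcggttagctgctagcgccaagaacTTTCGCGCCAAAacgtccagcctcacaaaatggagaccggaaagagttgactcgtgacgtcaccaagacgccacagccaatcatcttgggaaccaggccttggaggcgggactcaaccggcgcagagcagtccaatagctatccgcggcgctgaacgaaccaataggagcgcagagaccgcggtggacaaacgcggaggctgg
Msh6: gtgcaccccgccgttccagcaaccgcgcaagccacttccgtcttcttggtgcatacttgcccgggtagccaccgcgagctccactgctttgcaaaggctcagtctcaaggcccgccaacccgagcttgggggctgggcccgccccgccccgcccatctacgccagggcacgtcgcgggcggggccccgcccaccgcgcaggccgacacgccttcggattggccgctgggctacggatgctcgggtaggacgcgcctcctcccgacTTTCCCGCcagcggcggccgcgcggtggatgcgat
Rfc3: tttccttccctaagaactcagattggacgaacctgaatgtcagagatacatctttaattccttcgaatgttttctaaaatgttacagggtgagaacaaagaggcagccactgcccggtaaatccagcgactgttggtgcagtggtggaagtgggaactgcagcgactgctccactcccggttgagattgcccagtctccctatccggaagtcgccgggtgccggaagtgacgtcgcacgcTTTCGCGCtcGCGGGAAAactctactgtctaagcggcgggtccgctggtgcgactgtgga
The Mcm3 window (chr1:20820263-20820562, minus strand) holds words that begin 20 and 39 bases downstream, counting the start as base 1. In Mcm5 (chr8:75109259-75109558, plus strand) 2 different words, on opposite strands, overlap, beginning at -153 and -149. Msh6 (chr17:87974800-87975099, plus strand) has a single word at 16, and Rfc3 (chr5:151651159-151651458, minus strand) has words at -10 and 1 that flank the start. A match is a description of the letters and not a measured binding site.

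**Figure D1:**
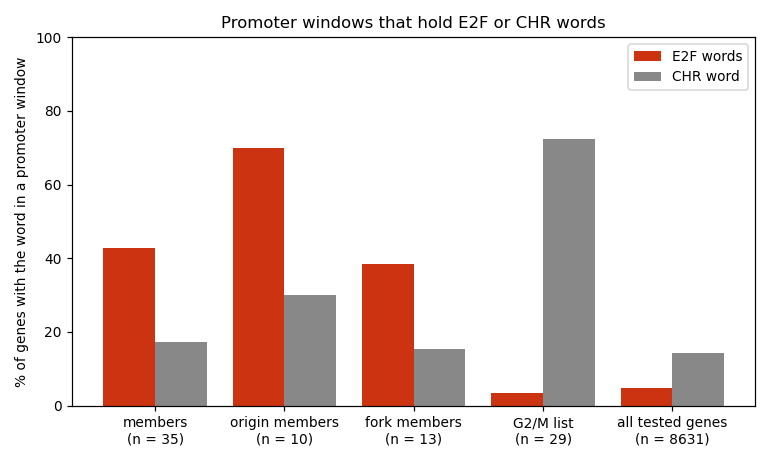
Share of genes with at least 1 E2F word (red) or the CHR word (grey) in a promoter window, in %, for all 45 genes, the origin and fork genes, a mitosis (G2/M) list and all tested genes; n is the number with a window. E2F words stand highest among origin genes (70.0%) and the CHR word among mitosis genes (72.4%).

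Mean levels of most replication genes were higher in HFD cells, but 1 gene passed the test. All 45 genes passed the filter of a mean of 1 TPM. Limma on log2(mean TPM + 1) of the 4 sets with Benjamini-Hochberg adjustment called 1 of the 45, against 0.506% of all tested genes, and at an unadjusted p under 0.05 there were 21 of 45 (46.7%), against 11.1% of all genes. Both HFD sets lay above both control sets for 37 of the 45 genes (82.2%), against 29.5% of all tested genes. Both HFD sets lay below both control sets for 1 of the 45, Mybl2, against 12.3% of all genes. For the other 7, E2f8, Pold2, Mcm10, Prim2, Pola1, Pole and Pold1, the sets overlapped. The median log2 fold change was 0.54, which is 0.42 above that of all genes. With Rn45s left out, 29 of the 45 had both HFD sets above, against 18% of all genes, no gene was called (11 had an unadjusted p under 0.05), and the median stood 0.41 above that of all genes. The count of non-overlapping genes also depended on which cells were used. In the cells within the interquartile range of genes per cell it was 13 of 45 (28.9%), close to the 25.9% of all genes there, while the median log2 fold change there was 0.66, or 0.52 above that of all genes there.

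**Figure D2:**
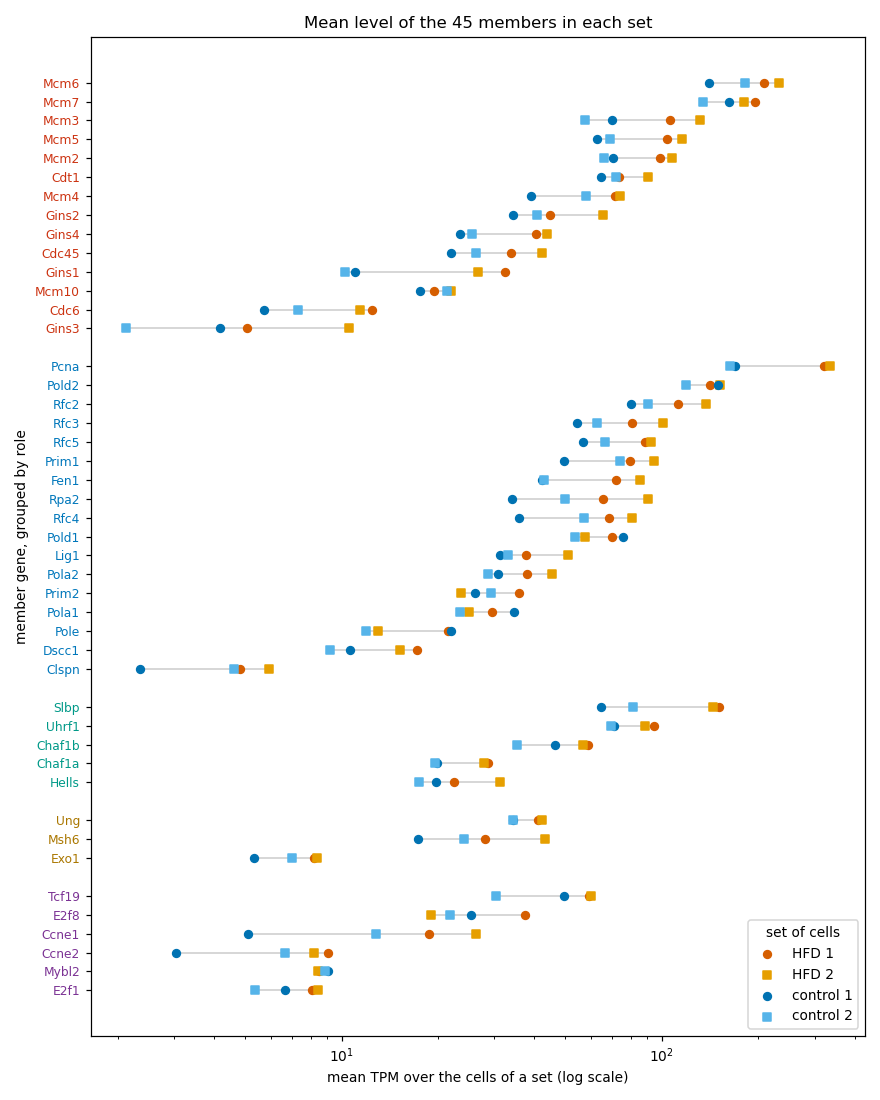
Mean TPM of each gene over the cells of a set (log axis), with HFD sets in orange and yellow and control sets in dark and light blue, and genes grouped by role from origin genes at the top to regulators at the bottom. The orange and yellow points lie right of both blue points in 37 of 45 rows, and the exceptions are Mcm10, Mybl2, E2f8 and 5 of the 7 polymerase and primase subunits.

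Among the 14 origin genes, 13 had both HFD sets above both control sets (92.9%, against 29.5% of all genes). The median log2 fold change was 0.61, or 0.49 above all genes. The count was 11 of 14 with Rn45s left out (78.6%, against 18% of all genes). Cdc6, the ATPase that helps load MCM, had 12.4 and 11.4 TPM in the HFD sets and 5.71 and 7.31 TPM in the control sets. Cdt1, which brings MCM to the origin, had 73.7 and 90.8 TPM in the HFD sets and 64.5 and 72.2 TPM in the control sets. The Cdc6 sets were well apart and those of Cdt1 nearly touched, with log2 fold changes of 0.79 (SE 0.34) and 0.26 (SE 0.25).

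The 6 subunits of the MCM ring all had both HFD sets above both control sets, against 29.5% of all genes. With Rn45s left out 5 of the 6 did, against 18% of all genes. Mcm2 had 98.6 and 108 TPM in the HFD sets and 70.3 and 66.1 TPM in the control sets. Mcm3, whose window is printed above, had 106 and 132 TPM in the HFD sets and 70.0 and 57.6 TPM in the control sets. Mcm3 was the largest of the 6 by fold change (0.89, SE 0.25, limma adjusted p = 0.148). Mcm4 had 71.5 and 73.8 TPM in the HFD sets and 39.1 and 58.1 TPM in the control sets. Mcm5 had 104 and 116 TPM in the HFD sets and 62.9 and 69.1 TPM in the control sets. The gap between diets for Mcm5 was several times the gap between its sets. Mcm6, the highest of the ring by its mean over all sets, had 209 and 233 TPM in the HFD sets and 141 and 182 TPM in the control sets. Mcm7 had 195 and 181 TPM in the HFD sets and 162 and 134 TPM in the control sets and the smallest fold change of the ring (0.35, SE 0.25). The fold changes of the ring thus ran between 0.35 and 0.89 with a median of 0.59, on subunits whose proteins are present in equal number in the complex. Mcm10, a separate firing factor despite its name, had 19.4 and 21.9 TPM in the HFD sets and 17.6 and 21.4 TPM in the control sets. Its sets overlapped, and its log2 fold change was 0.09 as deposited and -0.08 with Rn45s left out.

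Gins1, a subunit of the GINS complex (chr2:150905400-150931280 on GRCm38, plus strand), was the gene called. It had 32.5 and 26.7 TPM in the HFD sets and 11.0 and 10.2 TPM in the control sets, 29.6 ± 4.1 against 10.6 ± 0.58 TPM (SD, n = 2 sets each). It rose in HFD cells by 1.39 on the log2 scale (SE 0.29, limma adjusted p = 0.0184), and the HFD sets were apart from the control sets by more than the spread of either. Over the other settings its fold change stayed between 1.0 and 3.03 and its adjusted p between 0.00189 and 0.668. The call was lost without HFD 1 (adjusted p = 0.163), with Rn45s left out (0.595), by median-ratio scaling (0.0553), with cell-wise logs (0.0525), with no filter (0.668), in the interquartile range of genes per cell (0.609) and in Mki67-positive cells (0.302).

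The other helicase partners had both HFD sets above as well. Gins2 had 44.9 and 65.3 TPM in the HFD sets and 34.3 and 40.8 TPM in the control sets. Gins3 had 5.06 and 10.6 TPM in the HFD sets and 4.17 and 2.12 TPM in the control sets, and was the lowest of the 4 GINS genes. The HFD sets of Gins3 differed from each other by more than HFD 1 differed from control 1, and for Gins2, 70.7% of the exon bases also lie in exons of Gse1 on the opposite strand, which Smart-seq2 cannot separate. Gins4 had 40.4 and 43.7 TPM in the HFD sets and 23.4 and 25.6 TPM in the control sets. Cdc45 had 33.7 and 42.3 TPM in the HFD sets and 21.9 and 26.3 TPM in the control sets. Gins4 showed the tightest agreement within each diet of these genes, with a log2 fold change of 0.76 (SE 0.26, limma adjusted p = 0.262). Over the 4 GINS genes and Cdc45, a grouping made after the values were seen, the median log2 fold change was 0.76.

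At the fork, 12 of the 17 genes had both HFD sets above both control sets (70.6%, against 29.5% of all genes). The exceptions were polymerase and primase subunits. Pcna, the sliding clamp (chr2:132249162-132253314, minus strand), had 321 and 335 TPM in the HFD sets and 169 and 164 TPM in the control sets. Its difference of 0.98 on the log2 scale (SE 0.25) was far larger than the spread between sets but did not pass over all genes (limma adjusted p = 0.104). The clamp loader subunits Rfc2, Rfc3, Rfc4 and Rfc5 and Dscc1, a subunit of the alternative loader that acts in sister chromatid cohesion, also had both HFD sets above, with fold changes of 0.54 to 0.70. Rfc3, whose window carries words on both sides of the start, had 80.9 and 101 TPM in the HFD sets and 54.3 and 62.7 TPM in the control sets. Clamp and loaders, grouped after the values were seen, had a median of 0.64, and 6 of 6 were above, against 29.5% of all genes.

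The genes of lagging strand processing and single-strand protection also had both HFD sets above. Fen1, the flap nuclease, had 71.8 and 85.5 TPM in the HFD sets and 42.2 and 42.9 TPM in the control sets (0.86, SE 0.25). Rpa2, a subunit of the single-strand binding protein, had 65.5 and 90.6 TPM in the HFD sets and 34.1 and 49.8 TPM in the control sets (0.89, SE 0.26). Neither passed over all genes with limma (adjusted p = 0.158 and 0.200), and 78.8% of the Fen1 exon bases are shared with the opposite-strand gene Gm10143. Lig1, the ligase that joins Okazaki fragments, and Clspn, the checkpoint adaptor Claspin, had smaller differences of 0.44 and 0.55.

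The 7 polymerase and primase subunits had a median log2 fold change of 0.07 as deposited and -0.10 with Rn45s left out. These medians stood 0.06 and 0.05 below those of all genes. Both HFD sets lay above for 2 of the subunits, Pola2 and Prim1 (28.6%, close to the 29.5% of all genes). With Rn45s left out the count was also 2 (28.6%, against 18%). Pold1, the catalytic subunit of polymerase delta, had 69.8 and 57.5 TPM in the HFD sets and 75.7 and 53.5 TPM in the control sets. Pole, the catalytic subunit of polymerase epsilon, had 21.5 and 13.0 TPM in the HFD sets and 22.0 and 11.9 TPM in the control sets. Set 1 of each diet was high and set 2 low for both genes, so the sets of the 2 diets interleaved. Pola1, the catalytic subunit of polymerase alpha, had 29.5 and 24.9 TPM in the HFD sets and 34.7 and 23.4 TPM in the control sets. The log2 fold changes of the 3 catalytic subunits were -0.01 (Pold1, SE 0.26), 0.04 (Pole, SE 0.33) and -0.07 (Pola1, SE 0.28). Pole changed sign with Rn45s left out, to -0.13, and so did Pold2 and Prim2. The primase subunit Prim1 (79.5 and 94.5 TPM in the HFD sets, 49.6 and 74.3 TPM in the control sets) differed by 0.51 and Pola2 by 0.47. The grouping into polymerases and the rest of the fork was made after the values were seen, and the difference between the groups was not tested.

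**Figure D3:**
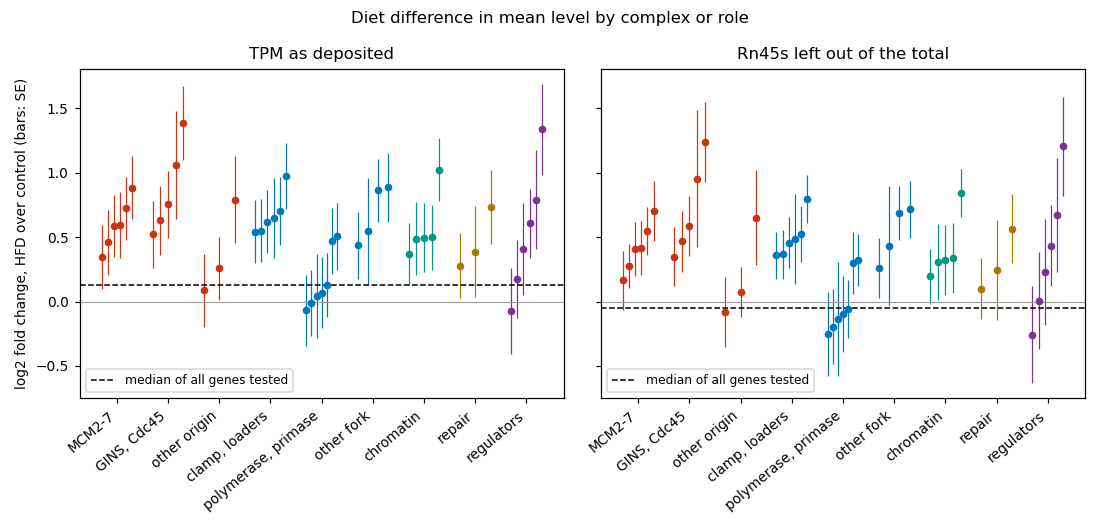
Log2 fold change in mean level, HFD over control, for each of the 45 genes with its SE (bars), by complex or role, with deposited TPM (left) and without Rn45s in the total (right). The dashed line is the median of all tested genes, and the polymerase and primase group alone has its median (0.07 and -0.10) below that line in both panels.

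All 5 chromatin genes had both HFD sets above both control sets, with a median log2 fold change of 0.50. Against 29.5% of all genes this was 5 of 5 as deposited, and with Rn45s left out it was 2 of 5 against 18%. Slbp, which binds the stem-loop of histone mRNA and is needed for histone supply in S phase (chr5:33634952-33652574, minus strand), had 151 and 145 TPM in the HFD sets and 64.5 and 81.3 TPM in the control sets. It had the second smallest p of the 45 genes, at a log2 fold change of 1.02 (SE 0.25, limma adjusted p = 0.0612). The adjusted p was 0.0166 without control 2, 0.0194 with cell-wise logs and 0.437 with Rn45s left out. Chaf1a and Chaf1b, subunits of the CAF-1 histone chaperone, Uhrf1, which reads hemimethylated DNA behind the fork, and the remodeller Hells differed by 0.37 to 0.50. For Slbp 14.4% and for Chaf1a 33.6% of exon bases lie in exons of an opposite-strand gene, as do 10% or more in 10 of the 45 genes.

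The 3 repair genes had both HFD sets above as well, against 29.5% of all genes. With Rn45s left out 2 of the 3 did, against 18% of all genes. Msh6, the mismatch recognition subunit whose window is printed above, had 28.1 and 43.2 TPM in the HFD sets and 17.4 and 24.2 TPM in the control sets (0.74, SE 0.29). Ung, the uracil glycosylase, and Exo1, a mismatch repair exonuclease, differed by 0.28 and 0.39, and the 2 HFD sets of each agreed closely.

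Of the 6 regulators, 4 had both HFD sets above both control sets (66.7%, against 29.5% of all genes). With Rn45s left out 2 did (33.3%, against 18% of all genes). Among them Ccne1, the cyclin E that activates Cdk2 at S phase entry, had the largest difference. It had 18.7 and 26.3 TPM in the HFD sets and 5.08 and 12.8 TPM in the control sets. Its log2 fold change was 1.34 (SE 0.35, limma adjusted p = 0.114), and control 2 lay closer to HFD 1 than to control 1. Without control 2 the adjusted p was 0.000333 (log2 fold change 1.93) and without control 1 it was 0.675 (0.75). Without HFD 1 it was 0.0474. Tcf19 had 59.1 and 60.0 TPM in the HFD sets and 49.5 and 30.3 TPM in the control sets (0.61, SE 0.27). Ccne2, the other cyclin E, differed by 0.79 and E2f1, an activator of S phase transcription, by 0.41, both with HFD sets above. E2f8, an atypical repressor of the family, had 37.5 and 19.0 TPM in the HFD sets and 25.4 and 21.8 TPM in the control sets, with HFD 1 highest and HFD 2 lowest of the 4. Mybl2, a transcription factor that links S phase to mitotic gene expression, had 8.51 and 8.41 TPM in the HFD sets and 9.04 and 8.86 TPM in the control sets. Its log2 fold change was -0.07 (SE 0.33), and it was 0.16 with cell-wise logs and 0.33 in the interquartile range of genes per cell.

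A higher mean can come from more cells with a transcript or from more transcript in each such cell, and both parts were compared for the 45 genes. A cell was counted as positive at 1 TPM or more. Limma on the logit of the share of positive cells called none of the 45 genes, against 0.216% of all tested genes, with 4 of 45 at an unadjusted p under 0.05 (8.89%, against 4.24% of all genes). Limma on mean log2 TPM of positive cells also called none, against 0.0194% of all tested genes, with 15 of 45 at an unadjusted p under 0.05 (33.3%, against 7.60%). Both HFD sets lay above both control sets for 26 of 45 genes by share (57.8%, against 14.9% of all genes) and for 26 of 45 by level (57.8%, against 31.8%). By both measures it was 14 genes and by neither 7, counts that were not made over all genes. With Rn45s left out the level count was 21 of 45, against 20.6% of all genes. The counts also moved with the cutoff for a positive cell. At 10 TPM or more the share count was 37 of 45 (82.2%, against 24.7% of all genes). The level count there was 20 of 42 (47.6%, against 22.6%). The mean share of positive cells was higher in HFD cells for 44 of the 45 genes, the exception being Mcm7. On the logit of the share it was also 44 of the 45 (97.8%), against 50.7% of all genes. The median gene of the 45 had 8.71 percentage points more positive cells.

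Which part was the larger depended on Rn45s: as deposited it was the level for 27 genes and the share for 18, and with Rn45s left out, a setting tried after the data were seen, it was the level for 17 and the share for 28. The larger part was the same in both for 35 of the 45 genes, Pcna, Slbp, Cdc6, Chaf1a and Gins1 among them. Pcna was a gene of the level kind. It was found in 92.3% and 91.3% of HFD cells and in 94.6% and 79.1% of control cells, and positive cells averaged 348 and 367 TPM in the HFD sets and 179 and 207 TPM in the control sets. The shares overlapped between the diets and the levels did not. Slbp also had the larger part in the level, with 164 and 167 TPM in positive HFD cells and 74.9 and 107 TPM in positive control cells. Unlike those of Pcna, its shares did not overlap, at 92.3% and 87.0% of HFD cells and 86.0% and 75.8% of control cells. Mcm7 went the 2 ways at once: 90.1% and 85.9% of HFD cells were positive and 94.6% and 90.1% of control cells, while positive cells averaged 216 and 211 TPM in the HFD sets and 172 and 149 TPM in the control sets. Genes found in nearly every cell leave little room for a higher share, and that limit was not tested.

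Cdc6 had the larger part in the share. It was found in 40.7% of HFD 1 cells (95% Clopper-Pearson interval 30.5% to 51.5%) and in 35.9% of HFD 2 cells (26.1% to 46.5%), against 22.6% of control 1 cells (14.5% to 32.4%) and 19.8% of control 2 cells (12.2% to 29.4%). Positive cells averaged 30.6 and 31.8 TPM in the HFD sets and 25.2 and 36.9 TPM in the control sets. The shares did not overlap between the diets and the mean TPM of positive cells did. On mean log2 TPM of positive cells the HFD sets of Cdc6 lay above as well, at 4.39 and 4.37 in HFD and 3.75 and 4.31 in control. Chaf1a was found in 64.8% and 66.3% of HFD cells and in 48.4% and 42.9% of control cells, with 44.3 and 42.1 TPM in positive HFD cells and 41.2 and 45.7 TPM in positive control cells. Its levels overlapped between the diets on the log2 scale too. Chaf1b and Ccne2 had log2 ratios of the shares of 0.52 and 0.85 beside -0.01 and 0.09 for the level.

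Gins1, the called gene, had both parts. It was found in 54.9% of HFD 1 cells (44.2% to 65.4%) and 43.5% of HFD 2 cells (33.2% to 54.2%), against 29.0% of control 1 cells (20.1% to 39.4%) and 24.2% of control 2 cells (15.8% to 34.3%). Its positive cells averaged 59.1 and 61.4 TPM in the HFD sets and 38.0 and 42.3 TPM in the control sets. On the log2 scale the ratio of shares was 0.88 and that of levels 0.59, each with the HFD sets above the control sets. Mybl2 had opposing parts, with 28.6% and 30.4% of HFD cells positive against 21.5% and 22.0% of control cells, but 29.8 and 27.6 TPM in positive HFD cells against 42.1 and 40.3 TPM in positive control cells. Its near-equal mean therefore held more positive cells at a lower level, and neither part passed with limma over all genes (adjusted p = 0.999 and 0.631).

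**Figure D4:**
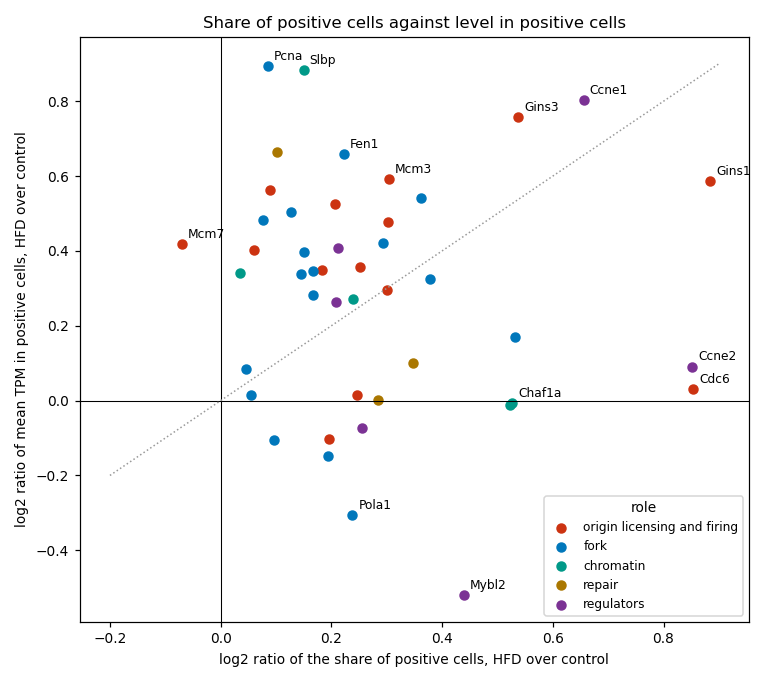
Each point is a gene, coloured by role, with the log2 ratio (HFD over control, deposited TPM) of the share of positive cells on the horizontal axis and of mean TPM in positive cells on the vertical axis; the dotted line marks equal parts. Pcna and Slbp lie high on the left (level), Cdc6, Ccne2 and Chaf1a low on the right (share), Gins1 and Ccne1 in the upper right, and Mybl2 and Pola1 below 0.

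Origin and fork genes were compared by the same parts. The median log2 ratio of shares was 0.25 for origin and 0.17 for fork genes, and the median log2 ratio of levels was 0.41 for origin and 0.34 for fork genes. Without Rn45s in the total, origin genes had median ratios of 0.22 for the share and 0.23 for the level, and fork genes 0.16 for the share and 0.16 for the level. The mean share of positive cells over the 14 origin genes was 68.4% and 63.6% in the HFD sets and 60.4% and 51.6% in the control sets. Over the 17 fork genes it was 71.6% and 68.7% in the HFD sets and 66.6% and 58.0% in the control sets. Both groups had the HFD sets above and control 2 lowest. The summed TPM of origin genes was 0.814 and 0.822 of that of fork genes in the HFD sets and 0.803 and 0.840 in the control sets, so the balance between the groups overlapped between the diets. With 2 sets per diet an exact permutation test of one such value cannot give a two-sided p below 0.333.

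Summed over all 45 genes, the sets held 2904 and 3135 TPM in HFD and 2012 and 2068 TPM in control, and 3969 and 3830 against 3288 and 2723 TPM with Rn45s left out. The number of the 45 genes found in a cell had a median of 32 (lowest 7, highest 45) in HFD 1 and 29 (5 to 44) in HFD 2, against 27 (4 to 44) in control 1 and 22 (3 to 43) in control 2. Cells with at least 36 of the 45 genes made up 39.6% and 28.3% of the HFD sets and 23.7% and 16.5% of the control sets. Each set spanned almost the whole range, and the sets differed in how many cells stood at its upper and lower ends. Cells with under 10 of the 45 genes made up 8.79% and 6.52% of the HFD sets and 5.38% and 15.4% of the control sets, so the diets overlapped there. This count moved with the number of genes detected per cell, with Spearman correlations over the cells of a set of 0.63 and 0.61 in HFD and 0.71 and 0.73 in control. In the cells within the interquartile range of genes per cell the medians were 29 and 32 in the HFD sets and 26 and 31 in the control sets, and overlapped.

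**Figure D5:**
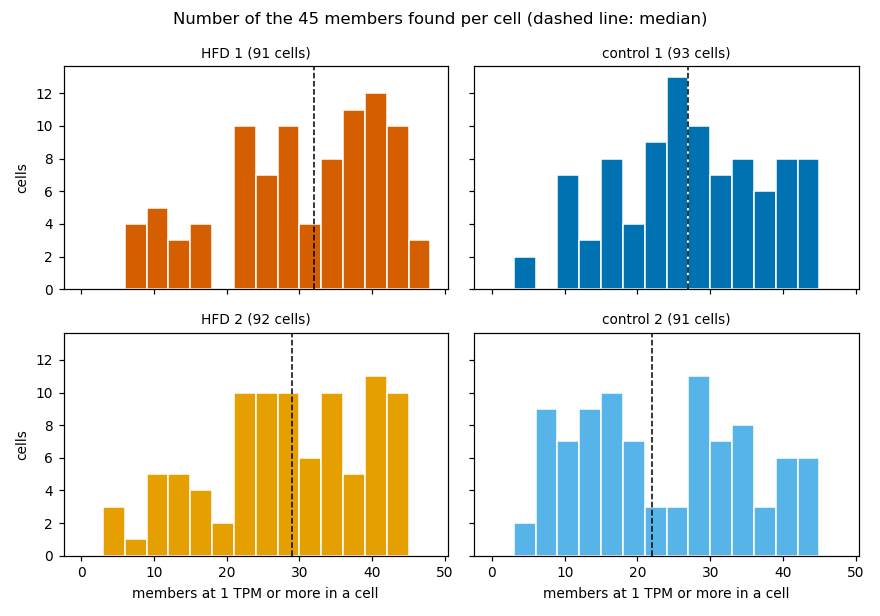
Histograms of the number of the 45 genes found at 1 TPM or more in a cell, 1 panel per set with HFD on the left and control on the right; the dashed line is the median. The medians are 32 and 29 in the HFD panels and 27 and 22 in the control panels, and each panel spans nearly the whole range.

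Cells were also split by Mki67, a marker of cycling cells, a split chosen after the data were seen. Mki67 was found in 73.6% and 53.3% of HFD cells and in 60.2% and 59.3% of control cells, so the diets overlapped. Among Mki67-positive cells the median number of the 45 genes was 35 and 35 in the HFD sets and 29 and 28 in the control sets. Among Mki67-negative cells it was 23 and 23 in the HFD sets and 24 and 14 in the control sets. The HFD sets thus lay above both control sets among Mki67-positive cells and between them among Mki67-negative cells. By mean level, both HFD sets lay above for 29 of 45 genes in Mki67-positive cells, against 28.5% of all genes there, and for 28 of 43 in Mki67-negative cells, against 24.8%. The median log2 fold change of the replication genes stood 0.31 above that of all genes in Mki67-positive cells and 0.53 above in Mki67-negative cells. Gins1 was called by limma in Mki67-negative cells (adjusted p = 0.0461) and not in Mki67-positive cells (0.302), and the difference between these cells was not tested.

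Within a set, the replication genes varied together from cell to cell, with similar medians within and between the origin and fork groups. The median Spearman correlation between pairs of origin genes ran from 0.34 to 0.38 over the 4 sets, between pairs of fork genes from 0.33 to 0.45 and between an origin and a fork gene from 0.33 to 0.39. Between an origin gene and a mitosis gene it ran from 0.01 to 0.13 and between a fork and a mitosis gene from 0.16 to 0.23, although mitosis genes correlated with each other at 0.64 to 0.72. These values rest on 91 to 93 cells per set, whose genes share the library, its depth and the Rn45s share.

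Other genes of the pathway were taken from further lists. On a list of 50 further replication genes, limma called none and 12 had an unadjusted p under 0.05 (24.0%, against 11.1% of all genes). Both HFD sets lay above for 27 of the 50 (54.0%), against 29.5% of all genes, with a median log2 fold change of 0.43. With Rn45s left out it was 21 of the 50 (42.0%), against 18% of all genes. The smallest p on it belonged to Pold3, an accessory subunit of polymerase delta, with 33.7 and 34.2 TPM in the HFD sets and 17.8 and 15.5 TPM in the control sets (0.99, SE 0.27, limma adjusted p = 0.133). Unlike the catalytic subunit Pold1, Pold3 had sets that were far apart between the diets. The sets of the accessory subunits Pold2 and Pold4 overlapped, with log2 fold changes of 0.13 and -0.06. Others with a small p were Tipin of the fork protection complex (0.87), geminin (Gmnn, 0.73), which inhibits Cdt1, the polymerase epsilon subunit Pole4 (0.71) and the S phase kinase Cdk2 (0.71). Pole2 and Pole3, also subunits of polymerase epsilon, differed by 0.65 and 0.39. Both HFD sets lay above for Pole2, and the sets of Pole3 overlapped. Of the 20 genes of nucleotide supply, limma called none higher and 1 lower, against 0.506% of all genes in either direction, and 12 had both HFD sets above (60.0%, against 29.5%), with a median of 0.30. With Rn45s left out limma called none, 5 had an unadjusted p under 0.05 and 9 of 20 had both HFD sets above, against 18% of all genes. Rrm2, the S phase subunit of ribonucleotide reductase, differed by 0.71 and Tyms, thymidylate synthase, by 0.83. The gene called lower was the mitochondrial thymidine kinase Tk2, named after its values were seen, with 2.47 and 2.97 TPM in the HFD sets and 8.60 and 13.6 TPM in the control sets (limma adjusted p = 0.0440 as deposited).

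Mitosis genes stood closer to the background by mean level. Of 32 G2/M genes limma called none, 0 had an unadjusted p under 0.05, and 6 (18.8%) had both HFD sets above both control sets, against 29.5% of all tested genes. Their median log2 fold change was 0.17, or 0.05 above all genes. By level in positive cells, limma gave 5 of the 32 an unadjusted p under 0.05 (15.6%, against 7.60% of all genes). Both HFD sets lay above for 9 of the 32 (28.1%, against 31.8%). The median level difference stood 0.17 above that of all genes, beside 0.21 for fork and 0.42 for origin genes. With Rn45s left out, 1 of the 32 had such a p (3.13%, against 4.72%) and the median stood 0.20 above. Mki67 had 44.4 and 28.7 TPM in the HFD sets and 38.0 and 38.9 TPM in the control sets, and Top2a, the topoisomerase of chromosome condensation, had 127 and 100 TPM in the HFD sets and 87.8 and 120 TPM in the control sets. Both genes had HFD 1 highest and HFD 2 below control 2, so the diets overlapped. The difference between the replication and mitosis lists was not tested.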

How the data were processed

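Per the submitters' processing notes, the authors used Bowtie2 and RSEM with the mouse build mm10, and the deposited values are TPM, 1 per gene and cell; no source used here gives versions, filters or annotation. Values of the cells that passed were averaged within each of the 4 sets. Limma 3.58.1 in R 4.3.3 tested 3 measures across all genes, as two-sided tests at a threshold of 0.05 after Benjamini-Hochberg adjustment. These were log2(mean TPM + 1) with a trend (genes averaging 1 TPM or more), the log2 odds of positive cells (genes positive in 5% to 95% of cells) and mean log2 TPM of positive cells (at least 10 per set). Limma pools the spread over genes. For the log2 odds of positive cells the SE was 0.573 for each of the 45 genes, so these p-values use a common spread and not that of each gene. The log2(TPM + 1) scale understates changes of low genes. Per-cell TPM holds no counts, so no count model was used. Intervals on shares cover counting error only. By rule, values per set were given for the origin genes, Pcna, the 5 smallest and the 3 largest p, and also named were the 6 smallest p of the further replication list (1 of them is not reported here), Mki67, Top2a, Rrm2, Tyms, Lgr5 and Rn45s; others were named after their values were seen. The 45 genes and the lists were chosen with earlier results of these data known. Gene coordinates are from GENCODE M21 and promoter sequences from RefSeq, GRCm38.p6. Alternatives are in the closing section.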

Additional observations from a re-analysis of the deposited data

How the results depend on the processing

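TPM keeps no depth and each diet has 2 sets, which limits every count. The median of the 45 genes relative to all genes stayed above 0 under each of the 14 alternatives run, between 0.31 and 0.59. The count of genes called by mean level, 59, became 81 to 148 with 1 set left out, 635 with the replicate block, 6 with Rn45s left out, 0 with no filter on low genes (1398 at an unadjusted p under 0.05), 18 in the interquartile range of genes per cell, 22 without cells with secretory markers, 21 in Mki67-positive and 13 in Mki67-negative cells. The count of replication genes called, 1, became 1 to 4 with 1 set left out (4 without control 2, namely Gins1, Rpa2, Slbp and Ccne1), 14 with the block and 4 with cell-wise logs (Mcm2, Mcm3, Rpa2 and Slbp). It was 0 by median-ratio scaling, with no filter, with Rn45s left out, in the interquartile range and in Mki67-positive cells, where 12, 19, 11, 8 and 15 genes had an unadjusted p under 0.05. The genes called by share, 24, became 6 to 68 with 1 set left out (68 without control 2), 0 at 10 TPM or more (653 at an unadjusted p under 0.05), 0 in the interquartile range (582), 1 in Mki67-positive and 0 in Mki67-negative cells (390). The genes called by level in positive cells, 2, became 0 to 41 with 1 set left out (41 without control 2), 0 when any TPM above 0 counted (763), 0 with Rn45s left out (492), 1 with at least 4000 genes per cell, 1 in the interquartile range, 0 without secretory-marker cells (834), 1 in Mki67-positive and 6 in Mki67-negative cells. The 37 non-overlapping genes became 13 of 45 in the interquartile range (28.9%, against 25.9% of all genes), with 43 to 49 cells per set. In Mki67-negative cells, with 24 to 43 cells per set, they were 28 of 43 (65.1%, against 24.8%). The cause was not tested. Fold changes near 0 changed sign. Mcm10 was -0.048 to 0.22 with 1 set left out, -0.050 by median-ratio scaling, -0.083 with Rn45s left out and -0.11 in Mki67-positive cells. Pole was -0.38 at the lowest and 0.46 at the highest with 1 set left out, -0.092 by median-ratio scaling, -0.13 with Rn45s left out and -0.030 in Mki67-positive cells. Pold1 was -0.25 to 0.24 with 1 set left out, 0.29 with cell-wise logs, 0.00076 with at least 4000 genes, 0.26 in the interquartile range, 0.0065 without secretory-marker cells and 0.60 in Mki67-negative cells. Mybl2 was 0.16 with cell-wise logs and 0.33 in the interquartile range. The labels give sets 1 and 2 in each diet without saying what the number shares. The set 1 minus set 2 differences of the diets correlated at 0.23 over genes, from 2 pairs only, and the replicate block called 14 replication genes by mean level (Slbp with an adjusted p of 0.00119 and Ccne1 with 0.00789 by limma), 0 by share and 0 by level. The splits by Mki67 were chosen after seeing the data.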
